A study of Mus musculus with 9 samples.

Results

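The 46 genes described here are the mouse odorant receptor (OR) genes whose symbols run from Olfr1273 to Olfr1318, with or without a pseudogene suffix, out of 55291 quantified genes. The symbol decides membership, but the block itself was picked with earlier results of these data known, as a cluster on the chromosome with the most changed genes in the Ms4a6c knockout. Of these 46, 41 had at least 10 expected counts summed over 9 mice and were tested, among 23225 tested genes in all. The main olfactory epithelium was sequenced as bulk RNA in 3 wild-type mice, 3 Ms4a6c knockout mice and 3 Ms4a cluster knockout mice, all labelled C57BL/6 and 8 to 12 weeks old. The wild-type mice were littermate controls, the Ms4a6c-/- allele came from homologous recombination in a knockout consortium line, and the Ms4a cluster deletion was made with CRISPR/Cas9. Each library came from a dissected epithelium with all its cell types, and the labels give neither the sex of the mice nor which knockout line each wild-type mouse was born alongside.

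ORs are G protein-coupled receptors that detect volatile chemicals at the cilia of olfactory sensory neurons (OSNs). Each mature OSN expresses a single OR gene from a single allele, chosen from a repertoire that is arranged in clusters on most chromosomes, and in bulk RNA the level of an OR gene therefore follows both how many OSNs chose it and how much of its RNA each holds. Fewer OSNs of a type and less RNA per OSN cannot be told apart here. MS4A proteins, the targets of the knockouts, are 4-transmembrane proteins encoded on another chromosome. The authors describe them as chemoreceptors of the necklace OSNs, except for MS4A1 (CD20), which they place in OSNs outside the necklace.

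Most of the members form a compact block. In the GENCODE M21 annotation of build GRCm38, 44 of them lie at chr2:111230360-112159157, a span of 928.8 kb, with 19 on the plus strand and 25 on the minus strand. Olfr1273-ps and Olfr1274 do not belong to that block. They lie at chr2:90292234-90298714 and chr2:90398683-90403897, near the end of the large chromosome 2 cluster, and their closest relatives by coding sequence are Olfr1272 at 93.6% identity and Olfr1506 at 98.4% identity. They were kept because the rule goes by number. The coding regions of the members are 909 to 978 bases long.

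Several members are close copies of each other, which bears on every value below because reads that fit 2 copies are divided between them by the authors' quantification. Of the 46 members, 27 had another OR gene at 90% identity or more over at least 300 coding bases, and 19 had none. Of the 41 tested members, 21 had whole-number counts in all 9 mice and 20 had a fractional count in at least 1 mouse, the trace left by dividing a read. A stretch of 90 bases from each of 2 near-identical pairs is shown to make this concrete, with the bases that differ within a pair in capitals. It is the start of the coding sequence or, for the unprocessed pseudogene Olfr268-ps1, the part of the transcript that aligns with the coding start of Olfr1303. The first pair has 0 differences in this stretch and 99.2% identity over 942 aligned bases, and the second has 1 difference in the stretch and 97.7% identity over 942 aligned bases.
Olfr1315-ps1: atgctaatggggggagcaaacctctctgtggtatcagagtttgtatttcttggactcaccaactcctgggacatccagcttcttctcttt
Olfr1316: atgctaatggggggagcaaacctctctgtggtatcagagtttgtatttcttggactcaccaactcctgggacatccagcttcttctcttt
Olfr1303: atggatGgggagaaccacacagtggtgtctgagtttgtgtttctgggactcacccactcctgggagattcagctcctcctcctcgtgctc
Olfr268-ps1: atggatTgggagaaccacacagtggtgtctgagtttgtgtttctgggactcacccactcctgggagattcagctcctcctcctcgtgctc

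The 2 members that passed the test in a comparison below, Olfr1314 and Olfr1278, are not of this kind. Their closest relatives among all OR genes are Olfr1306, at 82.9% identity, and Olfr1276, at 88.9% identity, and both had whole-number counts in all 9 mice. The same length of coding sequence is shown for each beside its closest relative, from coding base 1 for Olfr1314 and from coding base 12 for Olfr1278. There were 17 differing bases in the first pair and 13 in the second, again in capitals.
Olfr1314: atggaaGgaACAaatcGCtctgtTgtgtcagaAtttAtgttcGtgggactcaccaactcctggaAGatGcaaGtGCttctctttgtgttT
Olfr1306: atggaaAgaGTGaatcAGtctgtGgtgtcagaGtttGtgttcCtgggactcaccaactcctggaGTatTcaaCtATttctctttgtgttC
Olfr1278: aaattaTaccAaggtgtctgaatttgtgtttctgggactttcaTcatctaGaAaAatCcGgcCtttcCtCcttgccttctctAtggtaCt
Olfr1276: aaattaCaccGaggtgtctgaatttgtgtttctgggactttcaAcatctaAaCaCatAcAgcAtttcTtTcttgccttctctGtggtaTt

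Library totals ran from 13954591 to 21987174 expected counts. Ms4a6c, the targeted gene, was at 3.84 to 4.99 CPM (counts relative to the library size, after scaling by edgeR's TMM method) in wild-type mice, at 0 to 0.127 CPM in Ms4a6c knockout mice and at 0 in all 3 cluster knockout mice. Transcripts of a mature OSN list of 10 genes, Omp and Gnal among them, summed to between 11481 and 14549 CPM over the 9 libraries. Wild-type mouse 1 and cluster knockout mouse 2 stood apart, because Bpifb9b, a nasal gland secretory transcript, took 10.4% and 10.2% of their counts against at most 3.28% elsewhere. Counts of members called were therefore repeated without these 2 libraries.

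In wild-type mice the members together formed a small and uneven slice of OR expression. They held 3.31%, 3.12% and 3.05% of the counts of all 1407 Olfr genes in the 3 mice, a mean of 3.16% ± 0.134 (SD, n = 3). Olfr1301 alone made up 16.0% of the members' summed wild-type CPM, and the 6 most abundant members made up 48.2%. The total over 9 mice ran from 28.8 counts for a tested member to 5270 counts for Olfr1301, and 36 of the 41 tested members were above 3 counts in every mouse.

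Levels are compared between members per kb of merged exon, since exon lengths differ. Olfr1301 had the highest wild-type level, at 7.11 ± 0.586 CPM per kb (SD, n = 3), and Olfr1294 followed at 6.6 ± 0.787 CPM per kb, with overlapping ranges. Olfr1299 was at 4.01 ± 1.31 CPM per kb and Olfr1290 at 3.13 ± 0.279, also with overlapping ranges. Olfr1280 at 2.42 ± 0.402 CPM per kb and Olfr1274 at 2.36 ± 0.438 completed the highest 6 and overlapped too. Neither of these last 2 had a whole-number count in any mouse, so their places also rest on how shared reads were divided. All 6 are annotated as protein-coding receptors, and their ligands are not given in the sources used here.

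The lowest wild-type level was that of Olfr1314, at 0.0773 ± 0.0475 CPM per kb, which is 92.0-fold below Olfr1301. Above it came Olfr1310 at 0.172 ± 0.069 CPM per kb, Olfr1300-ps1 at 0.193 ± 0.074 and Olfr1307 at 0.2 ± 0.0156. The length of Olfr1307 includes a long transcript that makes its merged exons 15.58 kb, so its level per kb is lowered by the annotation as well. Olfr1285, annotated as a transcribed pseudogene, was at 0.226 ± 0.153 CPM per kb, and Olfr1279 at 0.283 ± 0.0398. Along the whole order, 36 of 40 neighbouring pairs had overlapping wild-type ranges and 4 did not, so the order is firm only in coarse steps.

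**Figure D1:**
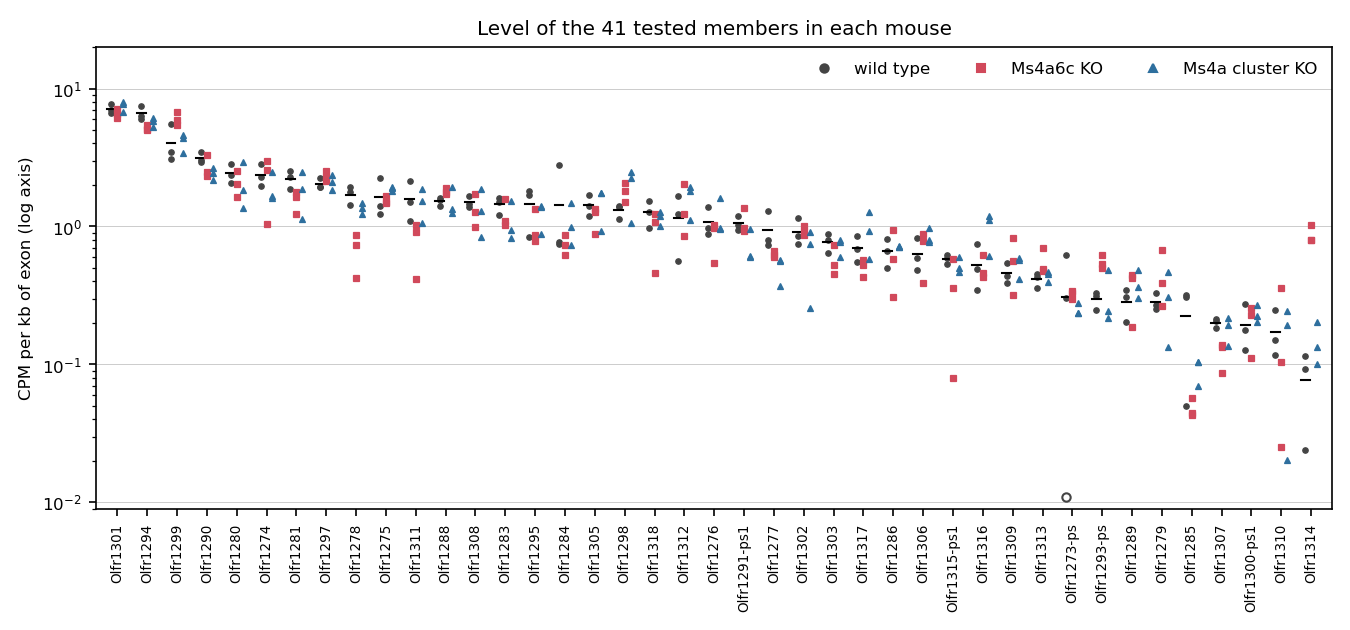
Level of the 41 tested members in each of the 9 mice, in CPM per kb of exon on a log axis, ordered by the wild-type mean (black bar). Circles are wild-type, squares Ms4a6c knockout and triangles Ms4a cluster knockout mice. The open circle at the bottom is a value of 0, for Olfr1273-ps in wild-type mouse 1. Olfr1314, at the right end, is the member whose 3 Ms4a6c knockout values lie far above the others.

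Another 5 members fell below 10 counts and were not tested. Olfr1296-ps1 and Olfr1304-ps1 had 0 counts in all 9 mice. Olfr1282 had 1 count in all, Olfr1292-ps1 had 3.07 and Olfr1287 had 7.06, and no mouse held more than 2.02 counts of any of them. A library with 0 counts could still hold up to 3 counts' worth of a gene, which is 0.136 to 0.215 CPM before TMM scaling, and this limit covers counting error only. Olfr1282 is 97.6% identical to Olfr1286 and Olfr1287 is 96.7% identical to Olfr1283, both of which had counts in every mouse.

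Below 10 counts were 3 of the 8 members with a -ps suffix and 2 of the 38 others, and the levels that follow leave them out. The 5 tested members with the suffix had a median wild-type level of 0.31 CPM per kb, with a range of 0.193 to 1.05, and the 36 others had a median of 1.29 with a range of 0.0773 to 7.11. Of the 5, Olfr1291-ps1 was the highest. The suffix does not follow the annotation: GENCODE M21 lists Olfr1291-ps1, Olfr1293-ps and Olfr1315-ps1 as protein-coding, and Olfr1285, without the suffix, as a transcribed pseudogene. By that annotation the 38 protein-coding tested members had a median of 1.21 CPM per kb and the 3 others a median of 0.226.

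The first comparison sets the Ms4a6c knockout mice against the wild-type mice. Each knockout is a separate line, so loss of the targeted genes and other differences of line or litter cannot be told apart here. Of the 41 tested members, Olfr1314 rose and Olfr1278 fell in Ms4a6c knockout mice and both had an adjusted p below 0.05 (quasi-likelihood test of edgeR, Benjamini-Hochberg adjusted over all tested genes). These are 2 of 41 members, where 0.435% of all 23225 genes passed. At an unadjusted p under 0.05 there were 9 members, or 22.0%, with 3 higher and 6 lower, beside 10.5% of all tested genes and 12.3% of the 1108 tested Olfr genes. The p-values weigh each difference against the spread between individual mice within the groups.

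Olfr1314 was nearly silent outside the Ms4a6c knockout. Its counts were 1, 5 and 6 for wild type, 75, 38 and 37 counts in the Ms4a6c knockout mice and 8, 3 and 12 counts in the cluster knockout mice. Every Ms4a6c knockout value lay above all 6 others, and the wild-type and cluster knockout values overlapped. In CPM the means were 0.23 ± 0.141 in wild-type, 2.6 ± 0.414 in Ms4a6c knockout and 0.434 ± 0.154 in cluster knockout mice (SD, n = 3 each). The log2 fold change of the Ms4a6c knockout against wild type was 3.41 ± 0.43 (SE), or 10.7-fold higher (edgeR adjusted p = 0.00535). From the lowest place in the wild-type order, Olfr1314 reached 0.872 ± 0.139 CPM per kb in the Ms4a6c knockout, a level that lies among the middle members of the wild-type order.

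Olfr1278, at the other end of the block, went the other way. Its counts were 172, 178 and 233 in wild-type mice, 71, 97 and 80 in Ms4a6c knockout mice and 169, 102 and 187 in cluster knockout mice. On the CPM scale, all 3 Ms4a6c knockout values lay below the other 6, and the cluster knockout values overlapped the wild-type values. The mean was 11.8 ± 1.73 CPM in wild-type and 4.67 ± 1.6 CPM in Ms4a6c knockout mice. This is 2.55-fold lower, with a log2 fold change of -1.35 ± 0.24 (SE; edgeR adjusted p = 0.0448). This call is close to the threshold: it was lost in 10 of 17 alternative analyses, including the one without the 2 gland-rich libraries (log2 fold change -1.33, edgeR adjusted p = 0.0512). The call of Olfr1314 was kept in all 17, with edgeR or DESeq2 adjusted p between 1.18e-06 and 0.0398.

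**Figure D2:**
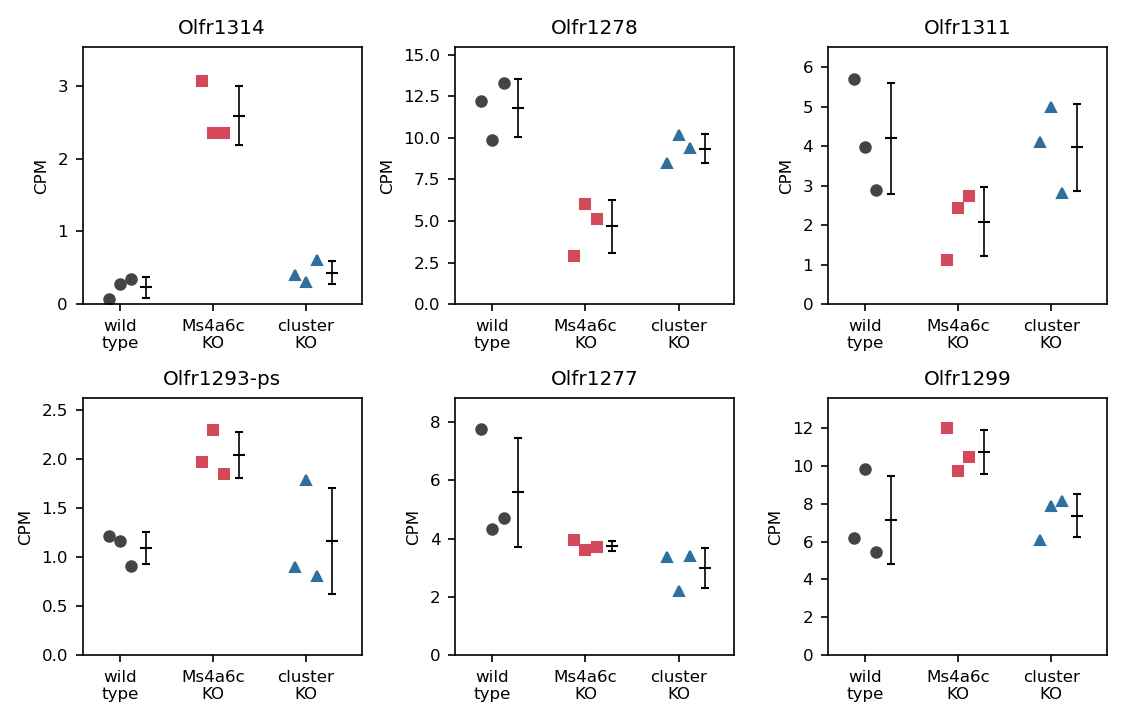
CPM of 6 members in each mouse, with a separate linear axis from 0 for each gene. Symbols are single mice, and the bar beside them is the mean with its SD over 3 mice. Only Olfr1314 and Olfr1278 passed the adjusted test in the Ms4a6c knockout, with means of 2.6 and 4.67 CPM there against 0.23 and 11.8 CPM in wild-type mice.

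The other members of this comparison whose values did not overlap between the groups missed the adjusted threshold. In all, 11 members, or 26.8%, had no overlap, 5 higher and 6 lower, beside 18.3% of all tested genes. Olfr1311 was at 5.69, 3.99 and 2.9 CPM in wild-type mice and at 1.11, 2.42 and 2.74 CPM in Ms4a6c knockout mice (log2 fold change -1.02 ± 0.37, edgeR adjusted p = 0.36). Olfr1307 was at 2.84, 3.22 and 3.3 CPM against 2.09, 1.36 and 2.17 CPM, a log2 fold change of -0.73 ± 0.25 (edgeR adjusted p = 0.323). Its near-copy Olfr1306 shares reads with it, and the pair summed to 4.31 ± 0.0993 CPM in wild-type and 3.17 ± 0.567 CPM in Ms4a6c knockout mice, still without overlap.

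The difference in Olfr1277 was smaller without the gland-rich libraries. It was at 7.75, 4.33 and 4.72 CPM in wild-type mice and at 3.94, 3.6 and 3.7 CPM in Ms4a6c knockout mice (log2 fold change -0.57 ± 0.25, edgeR adjusted p = 0.459). The high wild-type value is that of gland-rich mouse 1, and without the 2 gland-rich libraries the log2 fold change was -0.27 (edgeR adjusted p = 0.475).

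Among members with higher values in the Ms4a6c knockout, Olfr1293-ps came next to Olfr1314. It was at 1.21, 1.16 and 0.91 CPM in wild-type mice and at 1.97, 2.3 and 1.85 CPM in Ms4a6c knockout mice (log2 fold change 0.89 ± 0.32, edgeR adjusted p = 0.354). It is 97.1% identical to Olfr1291-ps1 and had whole-number counts in 6 of 9 mice. In Ms4a6c knockout mouse 1 the counts of Olfr1293-ps, Olfr1291-ps1 and Olfr1289 were 48.08, 178.24 and 17.68. They add up to a whole number, so reads were divided among these copies. Olfr1291-ps1 was at 5.54, 5.1 and 6.43 CPM in wild-type and 7.3, 5.27 and 4.97 CPM in Ms4a6c knockout mice. The summed level of Olfr1293-ps and Olfr1291-ps1 overlapped between these groups. Olfr1298 was at 2.2, 1.78 and 2.16 CPM against 2.83, 2.36 and 3.25 CPM (log2 fold change 0.46 ± 0.31, edgeR adjusted p = 0.64), and Olfr1313 was at 1.21, 0.943 and 1.14 CPM against 1.84, 1.3 and 1.27 CPM (0.44 ± 0.27, adjusted p = 0.597).

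Near-identical copies also limit what the lowest members show. Olfr1285 had the most negative log2 fold change of the 41, at -2.12 ± 0.74, but it rested on 1, 8.17 and 8.16 counts in wild-type mice against 2.16, 1.04 and 1 in the Ms4a6c knockout, and the groups overlapped (edgeR adjusted p = 0.336). It is 96.7% identical to Olfr1281, and their sum was 11.2 ± 1.6 CPM in wild-type and 7.67 ± 1.38 CPM in Ms4a6c knockout mice, without overlap. Olfr1281 alone was at 10.9 and 7.6 CPM, so the sum says little about Olfr1285. The counts of this pair summed to whole numbers in 6 of 9 mice.

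Olfr268-ps1 lies inside the block but carries a number outside the rule. It had 0 counts in all wild-type and all cluster knockout mice and 5.08, 4.45 and 9.02 counts in the Ms4a6c knockout mice (edgeR adjusted p = 0.235). Its near-copy is Olfr1303, printed above, and the counts of the pair summed to whole numbers in 9 of 9 mice. The pair's summed level was 2.31 ± 0.352 CPM in wild-type and 2.03 ± 0.344 CPM in Ms4a6c knockout mice, with overlapping values. Olfr268-ps1 was named after its values were seen.

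Over all tested members the Ms4a6c knockout differed from wild type by a median log2 fold change of -0.11, with 25 members below 0 and 16 above, while the median was 0.08 over all tested Olfr genes and 0.00 over all tested genes. For the 39 tested members of the block alone the median was -0.16. The quartiles of the members' log2 fold changes ran from -0.46 to 0.18, beside -0.15 to 0.35 for all Olfr genes.

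The second comparison sets the Ms4a cluster knockout mice against the same wild-type mice. None of the 41 members passed the adjusted test with edgeR or with DESeq2, beside 0.0258% of all tested genes. At an unadjusted p under 0.05 there were 4 members, or 9.76%, beside 4.93% of all tested genes and 9.12% of all tested Olfr genes. Values did not overlap for 2 members, both lower, beside 9.86% of all tested genes.

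Those 2 members were Olfr1277 and Olfr1290. Olfr1277 was at 3.36, 2.19 and 3.41 CPM in cluster knockout mice, below the wild-type values given above, with a log2 fold change of -0.88 ± 0.25 (edgeR adjusted p = 0.968). Without the 2 gland-rich libraries it was -0.42 (edgeR adjusted p = 0.57). Olfr1290 was at 8.74, 10.3 and 9.05 CPM in wild-type and 7.26, 7.97 and 6.47 CPM in cluster knockout mice, a log2 fold change of -0.38 ± 0.16 (edgeR adjusted p = 0.968).

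Olfr1314, so different in the Ms4a6c knockout, had a log2 fold change of 0.90 ± 0.49 in the cluster knockout against wild type (edgeR adjusted p = 0.968). For Olfr1278 it was -0.34 ± 0.23 (edgeR adjusted p = 0.971). The median over the 41 members was -0.09 (0.00 for the 39 of the block), and it was -0.08 over all tested Olfr genes and 0.01 over all tested genes.

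**Figure D3:**
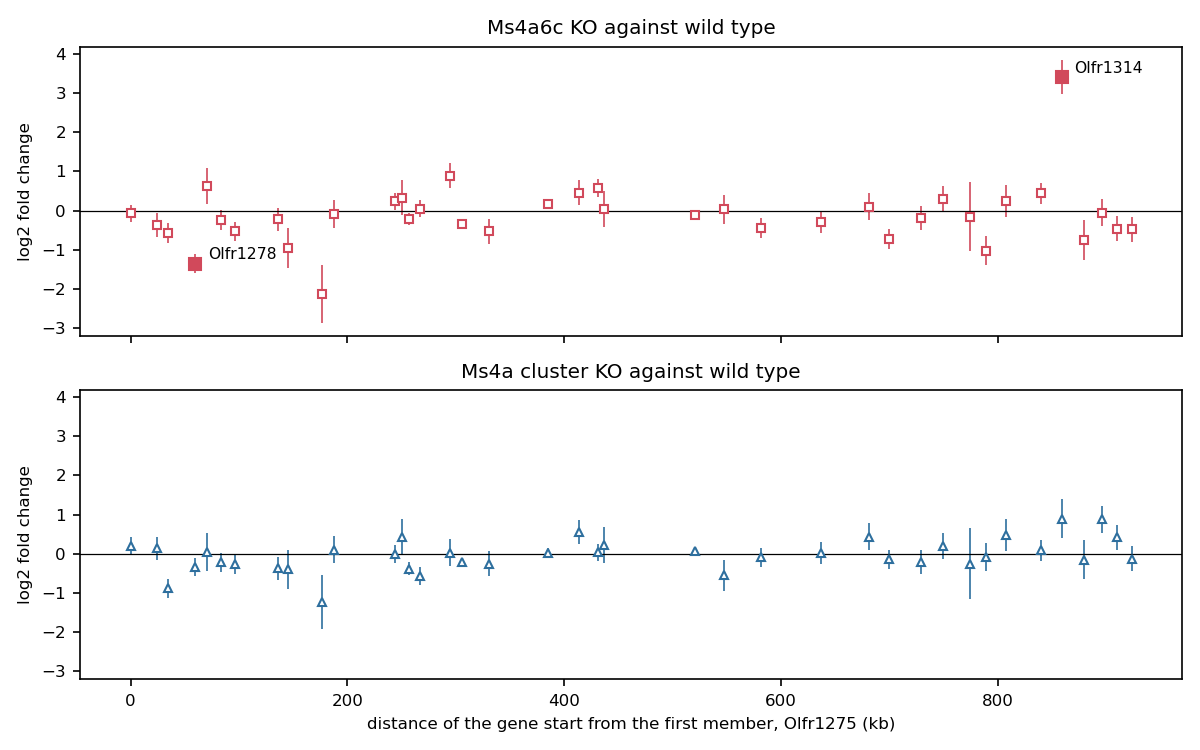
Log2 fold change with its SE for the 39 tested members of the block, by the distance of each gene start from that of Olfr1275 in kb, for the Ms4a6c knockout (top) and the Ms4a cluster knockout (bottom) against the same wild-type mice. Filled, named symbols have an edgeR adjusted p under 0.05. Olfr1314, 859.4 kb along, stands at 3.41 in the upper panel between neighbours at 0.44 and -0.76, and no symbol is filled in the lower panel.

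The genes next to the 2 called members were not called themselves. Olfr1313 and Olfr1315-ps1, on either side of Olfr1314, had log2 fold changes of 0.44 and -0.76 in the Ms4a6c knockout. Beside Olfr1278, Olfr1277 was at -0.57 and Olfr1279 at 0.63.

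The third comparison sets the 2 knockouts against each other, and it shares the Ms4a6c knockout mice with the first and the cluster knockout mice with the second. Olfr1314 was the 1 member called, beside 0.443% of all tested genes, with a log2 fold change of -2.52 ± 0.40 in cluster knockout against Ms4a6c knockout mice, or 5.72-fold lower (edgeR adjusted p = 0.0257). The call was lost in 8 of 17 alternative analyses, with adjusted p up to 0.133. Olfr1278 was 2.01-fold higher in cluster knockout mice, at a log2 fold change of 1.01 ± 0.24, and missed the threshold (edgeR adjusted p = 0.159).

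At an unadjusted p under 0.05 there were 9 members, or 22.0%, beside 9.38% of all tested genes and 16.6% of all tested Olfr genes, and 11 members did not overlap, or 26.8%, beside 16.0%. Olfr1299 was at 12, 9.74 and 10.5 CPM in Ms4a6c knockout mice and at 6.06, 7.87 and 8.17 CPM in cluster knockout mice, a log2 fold change of -0.55 ± 0.22 (edgeR adjusted p = 0.464). Olfr1317 was at 1.11, 1.36 and 1.47 CPM against 3.31, 2.39 and 1.5 CPM, a log2 fold change of 0.88 ± 0.32 (edgeR adjusted p = 0.428). Its counts and those of its copy Olfr1318, at 97.9% identity, summed to whole numbers in 9 of 9 mice, and that sum overlapped between the knockouts.

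The remaining members named by the size of their difference in this comparison were Olfr1293-ps, Olfr1273-ps, Olfr1311 and Olfr1285. The log2 fold change was -0.86 ± 0.32 for Olfr1293-ps and -0.39 ± 0.78 for Olfr1273-ps. It was 0.93 ± 0.37 for Olfr1311 and 0.90 ± 0.82 for Olfr1285, and none of the 4 passed the adjusted test. The median over the 41 members was 0.14 (0.17 for the 39 of the block), beside -0.17 over all tested Olfr genes and 0.01 over all tested genes.

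Summed over all 46 members, the members' share of OR counts was lowest in the Ms4a6c knockout. The share was 2.89%, 2.78% and 2.82% in the Ms4a6c knockout mice, a mean of 2.83% ± 0.0569 (SD, n = 3), and all 3 values lay below those of the other 6 mice. In cluster knockout mice it was 3.23%, 3.56% and 2.94%, a mean of 3.24% ± 0.31, which overlapped the wild-type values. These sums include Olfr1273-ps and Olfr1274, which lie outside the block. Olfr1274 held 85.7 counts in Ms4a6c knockout mouse 1, at 2.89%, and 166.61 counts in cluster knockout mouse 3, at 2.94%. The separation from the cluster knockout therefore does not hold for the block alone. The large chromosome 2 cluster, Olfr987 to Olfr1272, held 18.6% ± 0.123 of OR counts in wild-type, 17.5% ± 0.642 in Ms4a6c knockout and 17.5% ± 0.738 in cluster knockout mice.

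On the CPM scale the members summed to 214 ± 10.8 in wild-type, 191 ± 1.3 in Ms4a6c knockout and 203 ± 15 in cluster knockout mice (SD, n = 3 each). All Olfr genes together summed to between 5757 and 7107 CPM over the 9 mice. Without scaling for composition the order of the means was not kept: by plain library size the members' sum was 211 CPM in the Ms4a6c knockout and 207 CPM in wild-type mice. That wild-type mean includes gland-rich mouse 1 at 154 CPM, beside 243 and 225 CPM in wild-type mice 2 and 3. The Ms4a6c knockout mice were at 211, 207 and 215 CPM. No test was run on these sums, because the members were chosen with results known.

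**Figure D4:**
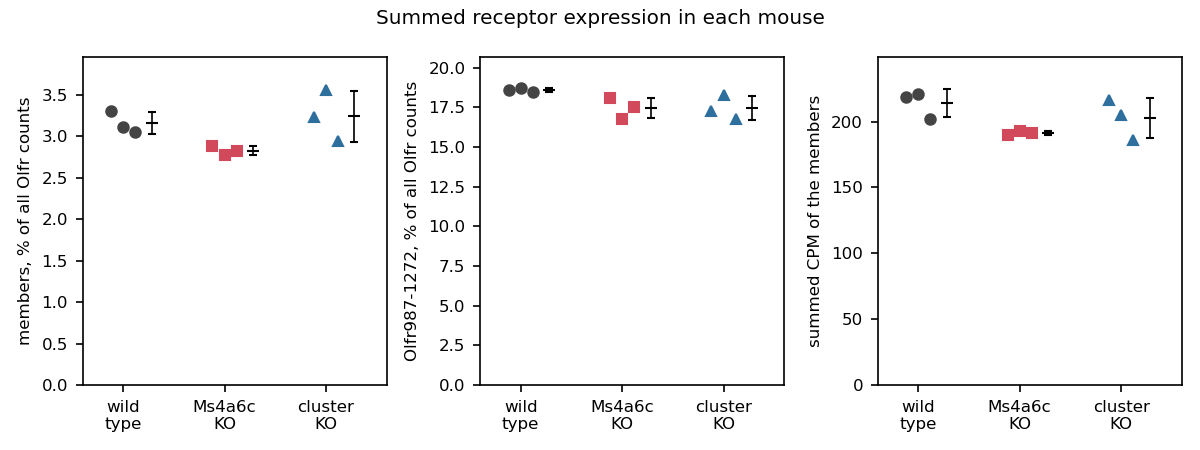
Share of all Olfr counts held by the 46 members (left) and by Olfr987 to Olfr1272 (middle), in percent, and the members' summed CPM (right), for each mouse, on linear axes from 0. Symbols are single mice, and the bar beside them is the mean with its SD over 3 mice. The 3 Ms4a6c knockout values of the left panel, 2.78% to 2.89%, lie below the 3 wild-type values, 3.05% to 3.31%.

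Genes that serve receptor choice and receptor trafficking in OSNs were looked at beside the receptors. In a list of 18 such genes, which holds Lhx2 and Ldb1, the transcription factor and its cofactor at OR enhancers, and Rtp1 and Rtp2, which carry receptors to the cell surface, 0 of 18 passed the adjusted test in any of the 3 edgeR comparisons. At an unadjusted p under 0.05 there was 1 of 18 in each comparison. Of the 10 mature OSN genes, Gng13, a G protein gamma subunit, fell in the Ms4a6c knockout, from 359 ± 11.8 to 193 ± 12.8 CPM (edgeR adjusted p = 0.00121). The other 9 did not pass, and the summed level of the list ranged from 12668 to 14549 CPM in wild-type and from 13811 to 14466 CPM in Ms4a6c knockout mice.

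Summed levels of the markers of other cells lay apart between the Ms4a6c knockout and wild type for some lists and overlapped for others. The 4 sustentacular cell markers summed to 8412 to 8884 CPM in wild-type, 10121 to 10771 CPM in Ms4a6c knockout and 8162 to 9024 CPM in cluster knockout mice, with 0 of 4 past the adjusted test and 3 of 4 at an unadjusted p under 0.05. Most of that sum is Cyp2g1, at 4609 ± 60.2 CPM in wild-type and 5748 ± 242 CPM in Ms4a6c knockout mice, and Sec14l3, at 3402 ± 158 and 3957 ± 151 CPM. Cyp1a2 was at 470 ± 20.1 and 561 ± 16.2 CPM, while Ermn, the marker with the smallest p, lay in the opposite direction at 151 ± 19.7 and 114 ± 6.8 CPM (SD, n = 3 each). The 3 hemoglobin genes summed to 602 to 835 CPM in wild-type and 742 to 2117 CPM in Ms4a6c knockout mice, with overlap. Of these, 0 of 3 passed the adjusted test and 3 of 3 were at an unadjusted p under 0.05. The 3 zone markers are genes whose expression differs between regions of the epithelium, and they need not mark the same region. They summed to 542 to 579 CPM in wild-type and 657 to 696 CPM in Ms4a6c knockout mice, without overlap. Among them, Acsm4 was at 351 ± 6.98 CPM in wild-type and 456 ± 18.5 CPM in Ms4a6c knockout mice. Nqo1 was at 135 ± 12.1 and 151 ± 10.6 CPM, and Ncam2 at 78.7 ± 3.1 and 75.2 ± 6.93 CPM, with 0 of 3 past the adjusted test. The 5 nasal gland markers, of which 0 passed, summed to 2911 to 242996 CPM in wild-type, 1207 to 33118 CPM in Ms4a6c knockout and 723 to 215439 CPM in cluster knockout mice, with overlap. The part of these cells in the members' values was not tested. The summed levels of immature OSN, basal cell, ciliated cell and immune markers also overlapped between the Ms4a6c knockout and wild type, and 0 of these genes passed.

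Chromosome 2 was picked with its calls in the Ms4a6c knockout known, so the shares of called genes on it are a description and support nothing. Within 5 Mb of the middle of the block, 1 of 49 other tested genes was called in the Ms4a6c knockout against wild type, or 2.04%, and 12.2% were at an unadjusted p under 0.05, beside 10.5% of all tested genes. Within 10 Mb, a window chosen after the values were seen, 12 of 195 other tested genes were called, or 6.15%. Over all 1875 tested non-members of chromosome 2, these 195 included, 26 were called, or 1.39%. On the other chromosomes it was 73 of 21287 genes, or 0.343%. Of the 12, 10 lay on the far side at 6.99 to 9.8 Mb. In the cluster knockout against wild type, 0 of the 195 were called. Among chromosomes, 12 had the highest called share in the Ms4a6c knockout, at 1.66%, followed by chromosome 2 at 1.46% with the members included. The nearest called gene to the block was Gm21596, an unnamed gene model 2.23 Mb from its middle, with a log2 fold change of 4.67 ± 0.358 (edgeR adjusted p = 0.00017). The tested genes directly beside the block were not called: on the near side A26c3, Gm13961 and Ano3, a gene of the anoctamin family, had log2 fold changes of -0.35, -0.80 and -3.49 (edgeR adjusted p of 0.923, 0.743 and 0.561). The value of Ano3 rested on 35 counts in wild-type mouse 3, since the other wild-type mice had 0 counts and each Ms4a6c knockout mouse had 1. On the far side Lpcat4, a lysophospholipid acyltransferase, Nutm1 and Nop10, a small nucleolar ribonucleoprotein, were at 0.05, -1.96 and -0.06, with at most 4 counts of Nutm1 in any mouse.

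**Figure D5:**
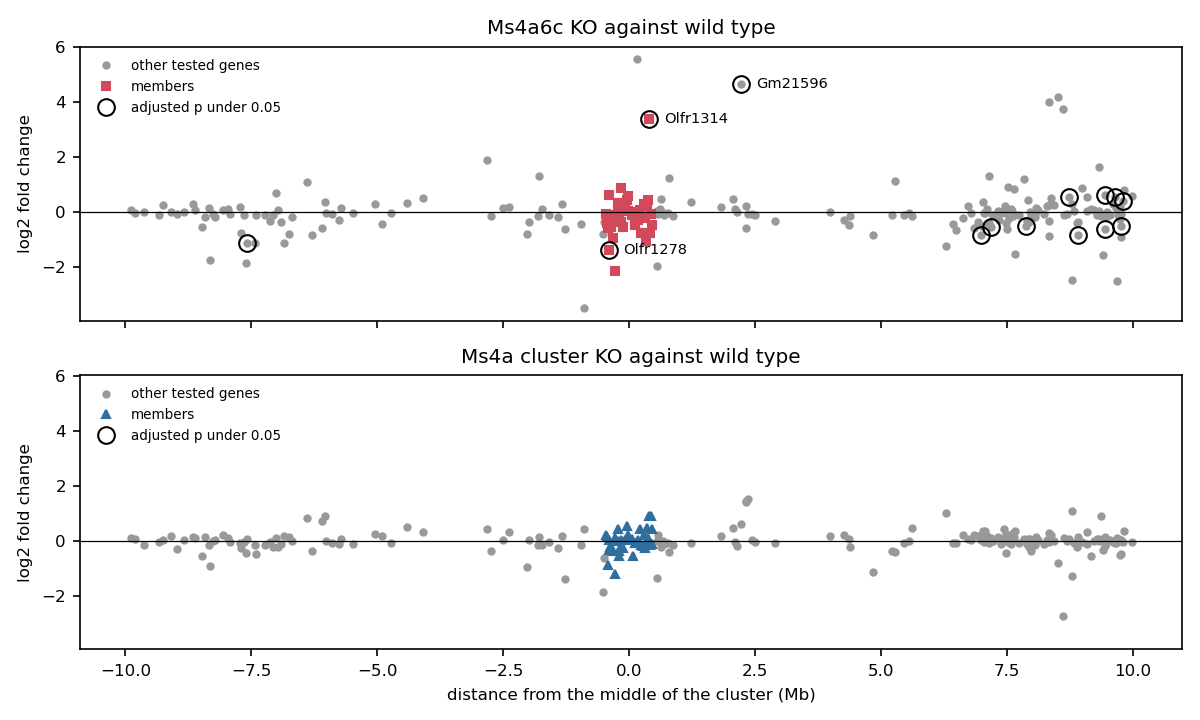
Log2 fold change of the tested genes within 10 Mb of the middle of the block, by distance in Mb, for the Ms4a6c knockout (top) and the Ms4a cluster knockout (bottom) against wild type. Colored symbols are members, gray points are other genes, and black rings mark an edgeR adjusted p under 0.05, with names given for ringed genes within 5 Mb. The upper panel has 12 ringed gray points, 10 of them at 6.99 to 9.8 Mb on the far side, and the lower panel has none.

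Sequence windows of the members, most of them around the coding start, were also searched for short motifs. RefSeq promoter windows of GRCm38.p6 were at hand for 31 members, in 32 windows. The homeodomain cores TAATGA or TAATTA, which LIM-homeodomain factors such as Lhx2 recognize, were in 17 of 32 windows on either strand, or 53.1%, beside 40.9% of all Olfr windows and 13.9% of all windows of the table. The EBF site, TCCC and GGGA with any 2 bases between them, was in 0 of 32 windows, beside 0.5% of Olfr and 0.9% of all windows. Most of these windows are anchored at the coding start and not at the start of transcription. Such a window holds mostly the bases before the coding region and ends within it. The members' shares therefore describe that sequence, and no promoter is shown. In the whole table, 20858 of 32851 windows lie within 100 bases of a GENCODE transcript start. The 13.9% and 0.9% of all windows thus come from a different kind of sequence and are not a like comparison.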

How the data were processed

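Bulk RNA-seq libraries of 9 mice (main olfactory epithelium) were used, with genotype and replicate number from the sample labels. The authors aligned the reads of directional poly-A libraries with STAR 2.6.1, quantified them with RSEM 1.3.1 on GENCODE M25 (mm10, versions as in the submitters' processing notes) and deposited expected counts per gene, which are not normalized. RSEM divides reads that fit several genes. The deposited table has 0 per-sample columns that were not used.

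Expected counts were rounded, scaled by TMM and tested with edgeR 4.0.16 (quasi-likelihood, R 4.3.3) in 1 model of all 9 mice, without a replicate block, for genes with at least 10 summed counts. A gene was called at a Benjamini-Hochberg adjusted p under 0.05 over all 23225 genes. Totals of 13954591 to 21987174 counts per mouse put 3 counts at 0.136 to 0.215 CPM. The SE was derived from the fold change and the F statistic of the test. The procedure was tested on simulated counts. Positions and exon lengths came from GENCODE M21, to which 99.6% of genes were matched by transcript. Coding sequences of Olfr genes were compared with blastn 2.17.0. Sequences shown come from GENCODE M21 and promoter windows from RefSeq. Figures were drawn with matplotlib 3.10.9 in Python 3.11.

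The members and lists were chosen with earlier results of these data known, so no p is given for the members as a group. Named members were the 6 highest and 6 lowest wild-type levels per kb, those called, up to 4 per direction and comparison with the largest change among non-overlapping ones, and those below 10 counts. Other non-members were the 3 nearest tested genes on each side and the listed markers. The alternatives were other scalings (DESeq2 size factors, total receptor counts), other filters, the 2 compared genotypes alone, the replicate block, DESeq2 1.42.0, an adjusted p under 0.1, leaving out each mouse, other definitions of the summed values, and, added after the data were seen, leaving out the 2 gland-rich libraries.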

Additional observations from a re-analysis of the deposited data

Results flagged for a closer look

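Olfr1314 differed between the 2 knockouts in a direct test of one against the other: the log2 fold change of cluster knockout against Ms4a6c knockout mice was -2.52 ± 0.40 (SE; edgeR adjusted p = 0.0257), with 75, 38 and 37 counts in the Ms4a6c knockout and 8, 3 and 12 counts in the cluster knockout. All 3 mice of the cluster knockout were lower than all 3 mice of the Ms4a6c knockout. Without the 2 gland-rich libraries the log2 fold change was -2.37 (edgeR adjusted p = 0.0154). The call was lost in 8 of 17 alternative analyses: with the replicate block (edgeR adjusted p = 0.0965), and without any 1 mouse of either knockout or wild-type mouse 2, with edgeR adjusted p of 0.0517 to 0.133. Groups of 3 mice were not screened for single outlying samples.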

How the results depend on the processing

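The calls of single members were the results most open to the processing. In the Ms4a6c knockout against wild type, 2 members were called, and 1 was called with receptor-total scaling, with the 2 compared genotypes alone, with the replicate block and without the 2 gland-rich libraries. Leaving out 1 mouse gave 1 to 2 calls. Olfr1314 was the member that stayed, and Olfr1278 was lost without wild-type mouse 1, 2 or 3, Ms4a6c knockout mouse 3, or cluster knockout mouse 1 or 3, with edgeR adjusted p of 0.0776 to 0.181. In the cluster knockout against the Ms4a6c knockout, 1 member was called, 0 with the replicate block, 2 with DESeq2 (Olfr1314 and Olfr1278), and 0 to 1 without 1 mouse. The call of Olfr1314 there was lost without any 1 mouse of either knockout and without wild-type mouse 2, with edgeR adjusted p of 0.0517 to 0.133. In the cluster knockout against wild type, 0 members were called under each of 18 alternatives. The cause was not tested.

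The median log2 fold change of the members in the Ms4a6c knockout was -0.11, with a range of -0.17 to -0.11 without 1 mouse, and it was -0.19 with the replicate block. In the cluster knockout the median against wild type was -0.09, and it changed sign to 0.03 with receptor-total scaling, 0.04 without cluster knockout mouse 3 and 0.01 without wild-type mouse 2. Against the Ms4a6c knockout it was 0.14, and -0.01 without cluster knockout mouse 1. Receptor-total scaling moved the median of all genes by 0.11 in each comparison with the cluster knockout.

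As a share of all deposited counts the members held 0.0207% in wild-type, 0.0211% in Ms4a6c knockout and 0.0197% in cluster knockout mice. The gland-rich libraries had the lowest shares, 0.0154% in wild-type mouse 1 and 0.0144% in cluster knockout mouse 2. Without Olfr1301 the shares of Olfr counts were 2.65%, 2.36% and 2.66%. The members' sum in the Ms4a6c knockout was 211 CPM by plain library size, and the mean of log2(CPM + 0.1) was 1.59, 1.5 and 1.56 in the same order. The median wild-type level of the tested members was 1.08 CPM per kb and 2.56 CPM without division by length.

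Mice with the same replicate number did not deviate together: correlations of deviations from the group means were -0.3 to 0.041 for the same number and -0.161 to 0.271 for different numbers. The replicate block was therefore an alternative, and in it Olfr1314 was called in the Ms4a6c knockout against wild type (edgeR adjusted p = 0.0336). Over all genes, 101 were called in that comparison with edgeR, 345 with DESeq2 and 182 without a filter.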
